A study of Mus musculus with 10 samples.

Results

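Prostaglandins are lipid signals made in most tissues, and 10 genes of their synthesis, transport, breakdown and reception were followed across dermal endothelial cells (ECs). They were chosen by name from the 46517 Ensembl genes of the count tables. Of the 10, *Ptgs1* and *Ptgs2* encode the cyclooxygenases, *Ptgis*, *Ptges*, *Ptgds* and *Tbxas1* terminal synthases, *Slco2a1* the uptake carrier, *Hpgd* the main degrading enzyme, and *Ptger2* and *Ptger4* receptors for prostaglandin E2. The cells had been sorted as Podoplanin- and CD31-stained single cells from mouse ear skin into 384-well plates and sequenced by Smart-Seq2 (full-length cDNA, no molecular barcodes). The 5 mutant mice were *Pik3caH1047R;Cdh5-CreERT2*, Cre-positive and treated with 4-OHT on the ears at 3 wk of age. In these mice an activated form of the PI3K subunit p110α is switched on from the *Rosa26* locus in lymphatic and blood ECs alike. Of the 2 controls, control 1 was an untreated C57BL/6J mouse, and control 2 was a Cre-negative littermate given 4-OHT. All mice were 5 wk old and on a C57BL/6J background. A further Cre-negative littermate was not analysed here.

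Cyclooxygenases convert arachidonate, which phospholipases free from membranes, to the unstable prostaglandin H2. Each terminal synthase turns this into 1 product, such as prostacyclin in the endothelium of larger blood vessels, and the products leave the cell and act on G protein-coupled receptors nearby. Signaling ends when the carrier SLCO2A1 takes the prostaglandin up and HPGD, a dehydrogenase, oxidizes it. The study had also given an inhibitor of cyclooxygenase 2, the *Ptgs2* product, to mice of another line, *Pik3caH1047R;Vegfr3-CreERT2*, in which lymphatic ECs are targeted. Which ECs express the genes of the pathway was thus a question the single-cell data could address. Cells stained for immune or erythrocyte markers had been gated out at sorting. Immune cells, on which the study describes effects of such inhibition, were therefore largely absent.

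After removal of wells under 200 genes, under 50000 reads or over 10% mitochondrial reads, 3248 of 3456 cells remained, with a median of 295698 reads. The labels call the cells sorted LECs (lymphatic ECs), while the study's methods state that BECs (blood ECs) were sorted too, and the plates held both. A cell was a LEC where *Prox1*, *Flt4* and *Mmrn1* together reached 300 CPM (read counts scaled to a common library total) and exceeded *Flt1*, *Emcn* and *Podxl*, and a BEC where the second sum was larger. This gave 1641 LECs (175–367 per mouse) and 1542 BECs (163–340), and 65 cells were neither. In 1201 of the 3248 cells both sums reached 300 CPM, so there the larger sum alone set the class. In 52 BECs the second sum was under 300 CPM. The part of mixed RNA or doublets in the class differences was not tested. LECs with more *Mmrn2* than *Lyve1* CPM were taken as collecting vessel LECs, 189 in all (13–41 per mouse), and the 1452 others were mostly capillary in their markers. None of the 10 genes entered these rules. BECs were further split by their highest list of arterial, venous or capillary markers. Reads were summed per mouse and class, so that the mouse was the replicate, and the sums held 55616045–194353210 reads for LECs, 39610940–102714572 for BECs and 6271852–12887180 for collecting LECs. CPM values are of these plain sums, whereas log2 fold changes follow edgeR's own scaling. A gene was called where its adjusted p over all genes tested was under 0.05. The p-values measure the spread between these few mice. Of the BECs, 115 (7.46%) and of the LECs, 35 (2.13%) carried more CPM of a keratinocyte, fibroblast, mural, immune, mast cell or Schwann cell list than of the endothelial markers, and no doublet caller was run. The transgene has no entry in the tables, so the genotype labels could not be checked against it.

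The stretch of 250 bases before the transcription start is shown for 4 of the 10 genes, because the text turns on them. They are the 2 cyclooxygenases, of which 1 was read mostly in venous-marker BECs and 1 hardly at all, and the 2 receptors. The receptors had opposite preferences for LECs and BECs. RefSeq entries of build GRCm38.p6 were matched by symbol for 9 of the 10 genes, *Ptgis* having none. Capitals mark matches, on either strand, to 6 short motifs: the GC box GGGCGG, the TATA box TATAAA, the E-box CACGTG, the CRE half-site TGACG, the NF-kB site (GGGA, any 4 bases, then CC) and the forkhead site TGTTTAC. *Ptgs1* on chr2:36230176-36230425 (plus strand) held no match. *Ptgs2* on chr1:150099781-150100030 (plus strand, with 183 bases in exons of an antisense transcript) held 1 GC box. *Ptger2* on chr14:44987861-44988110 (plus strand, before the RefSeq start, which lies upstream of the start given below from the other annotation) held none, and *Ptger4* on chr15:5244188-5244437 (minus strand) held 4 GC boxes, the first 2 overlapping by a base.
Ptgs1: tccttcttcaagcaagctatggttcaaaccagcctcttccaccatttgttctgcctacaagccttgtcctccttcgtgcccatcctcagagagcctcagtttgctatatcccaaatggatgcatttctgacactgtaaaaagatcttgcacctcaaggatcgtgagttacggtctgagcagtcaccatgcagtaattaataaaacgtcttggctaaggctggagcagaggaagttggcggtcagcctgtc
Ptgs2: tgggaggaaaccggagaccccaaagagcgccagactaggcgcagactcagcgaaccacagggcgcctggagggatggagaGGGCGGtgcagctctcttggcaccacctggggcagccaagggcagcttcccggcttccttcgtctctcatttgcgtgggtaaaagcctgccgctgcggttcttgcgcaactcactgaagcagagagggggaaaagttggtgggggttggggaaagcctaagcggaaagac
Ptger2: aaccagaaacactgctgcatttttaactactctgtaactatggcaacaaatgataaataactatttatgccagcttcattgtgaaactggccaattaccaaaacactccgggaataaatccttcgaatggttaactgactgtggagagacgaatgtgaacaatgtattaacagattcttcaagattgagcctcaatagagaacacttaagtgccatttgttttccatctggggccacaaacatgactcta
Ptger4: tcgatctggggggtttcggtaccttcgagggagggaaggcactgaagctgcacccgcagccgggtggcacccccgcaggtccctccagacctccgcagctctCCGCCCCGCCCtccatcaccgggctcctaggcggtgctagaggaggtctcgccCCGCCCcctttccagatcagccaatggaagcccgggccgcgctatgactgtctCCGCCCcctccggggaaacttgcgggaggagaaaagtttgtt

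The 2 receptor stretches differed in base composition, with 66.8% G and C for *Ptger4* and 38% for *Ptger2*, against a median of 52.4% over all promoters. Among 32851 RefSeq promoters of the same length, 32.7% held a GC box, 12.4% the TATA box, 6.02% the E-box, 17.8% the CRE half-site, 17.6% the NF-kB site and 3.17% the forkhead site. A match is a run of letters and not a measured binding site.

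Per kilobase of exon, which is the scale on which genes can be compared, the order of levels was led by the same 2 genes in each class. In BECs the median over the 7 mice was 77.0 CPM per kb for *Ptgs1* and 45.3 for *Slco2a1*, and all others were at or below 6.03, the value of *Ptgis*. In LECs *Slco2a1* led with 12.4 CPM per kb before *Ptgs1* with 4.03, and the next, *Ptger2*, stood at 1.13. In collecting LECs *Slco2a1* reached 31.6 and *Ptgs1* 18.4 CPM per kb. The ranges of these 2 genes overlapped between mice in each of the 3 classes. Further down, too, the range over mice of each gene overlapped with that of its neighbour in the order, in LECs as in BECs. *Ptgs2* came last in LECs and BECs.

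**Figure D1:**
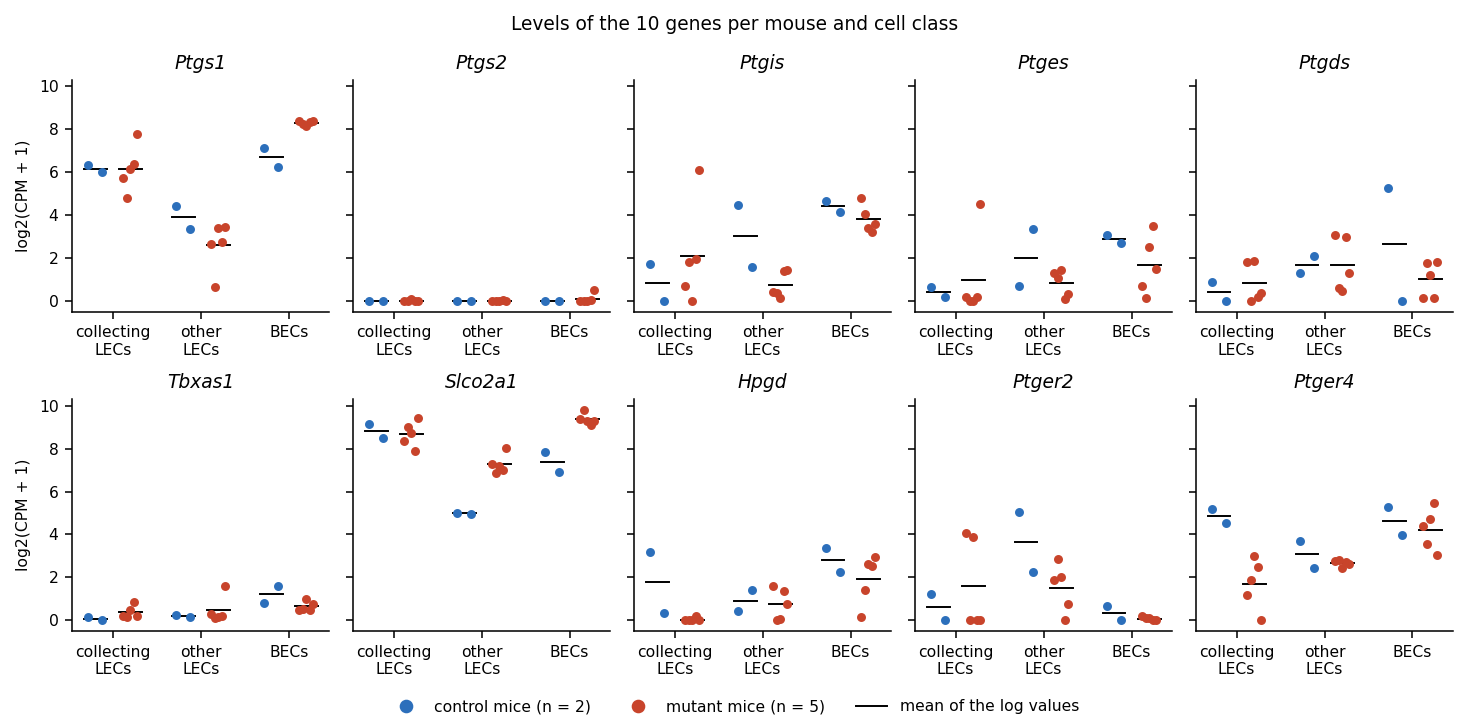
Level of each of the 10 genes as log2(CPM + 1) of the reads summed per mouse in collecting LECs, other LECs and BECs. Points are mice (2 control, 5 mutant) and bars the means of the log values. *Ptgs1* and *Slco2a1* are the highest in BECs, *Ptgs2* lies at or near 0 throughout, and *Slco2a1* is higher in all 5 mutants than in both controls in other LECs and in BECs.

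*Ptgs1*, on chromosome 2 at 36230426–36252272 (GRCm38), encodes the constitutive cyclooxygenase 1. In BECs it was at 141 and 74.2 CPM in control 1 and control 2, and at 331, 299, 283, 322 and 335 CPM in mutants 1–5. In LECs it was at 29.5 and 15.7 CPM in the controls and at 14.4, 4.14, 16.2, 13.9 and 16.9 CPM in the mutants. Within each mouse BECs therefore had more, and no LEC sum reached the lowest BEC sum. The log2 fold change of LECs against BECs within mice was −3.45 (SE 0.29, adjusted p = 0.000114), and it held when any 1 mouse was left out. After thinning each cell to 50000 reads, 48.6% ± 15.7 (SD, n = 7) of BECs per mouse had a *Ptgs1* read and 12.2% ± 7.04 of LECs, with BECs higher in 7 of 7 mice.

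*Ptgs2*, on chromosome 1 at 150100031–150108227, encodes the inducible cyclooxygenase 2. Across all 3248 cells it had 56 reads in 12 cells. None came from the 724 control cells, which allows a share of up to 0.414% of cells with a read. In mutant mice 6 of 1283 LECs and 6 of 1215 BECs had a read. Of the 56 reads, 45 lay in 1 cell of mutant 5 that the rule put among the BECs. That cell had 19450 CPM of the keratinocyte list, against a median of 22.1 in BECs, and only 43.8 CPM of the BEC and 40.4 of the LEC markers of the rule. The other 11 cells had 1 read each. *Ptgs2* did not pass the filter on low counts and was not tested, so a difference between classes or genotypes was not detectable at this depth. All intervals and limits of this kind cover counting error only.

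The dissociation of tissue can induce early response genes, *Ptgs2* among them in many cells, and 17 other such genes were followed as a list. Their summed level was higher in controls, at 3295–5257 CPM against 1386–2436 in mutants for LECs, and at 6250–6299 CPM against 2124–3995 for BECs. In LECs 6 of 17 were called lower in mutants and in BECs 3, where 2.76% and 1.86% of all genes tested were called, with *Egr1* lower by a log2 change of −2.78 (SE 0.25, adjusted p = 0.00392) in LECs. *Ptgs2* had 0 reads in the controls, where the list was higher. Its 11 reads outside the keratinocyte-marked cell are too few for a comparison of the genotypes. The part of dissociation in its reads and in the other results was not tested.

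Among the terminal synthases *Ptgis*, on chromosome 2 at 167191805–167240604, encodes prostacyclin synthase. It was at 24.3 and 17.0 CPM in control BECs and at 27.2, 15.5, 9.66, 8.40 and 11.02 CPM in those of mutants 1–5. In LECs it was at 18.8 and 1.80 CPM in the controls and at 0.418, 0.611, 0.108, 1.80 and 3.86 CPM in the mutants. The BEC sum was the higher in every mouse. The log2 fold change of LECs against BECs was −2.96 (SE 0.88, adjusted p = 0.0493), and leaving out either control or mutant 1, 2 or 3 took the adjusted p to between 0.0750 and 0.215. In 72.4% of its LEC reads and 19.96% of its BEC reads the cell was among those with more markers of another cell type.

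*Ptges*, *Ptgds* and *Tbxas1*, which encode the synthases of prostaglandin E2, prostaglandin D2 and thromboxane, were read in few cells. *Ptges* (chromosome 2, 30889471–30929863) ranged from 0.0850 to 8.20 CPM in LECs and from 0.115 to 10.4 in BECs, and 88.9% of its BEC reads lay in cells with more markers of another type. *Ptgds* (chromosome 2, 25466709–25470046) was at 37.1 CPM in the BECs of control 1 and between 0.0233 and 2.59 CPM in those of the other 6 mice. A *Ptgds* read was found in 11.7% of BECs and 10.4% of LECs of control 1, and in at most 3.30% in either class elsewhere, so the share set that mouse apart in both classes. *Tbxas1* (chromosome 6, 38875404–39084585) stayed at or below 2.08 CPM in all LEC and BEC sums. None of these 3 was called between LECs and BECs, where the log2 differences were −1.10 (SE 1.32), 0.59 (SE 3.60) and −2.07 (SE 0.74).

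**Figure D2:**
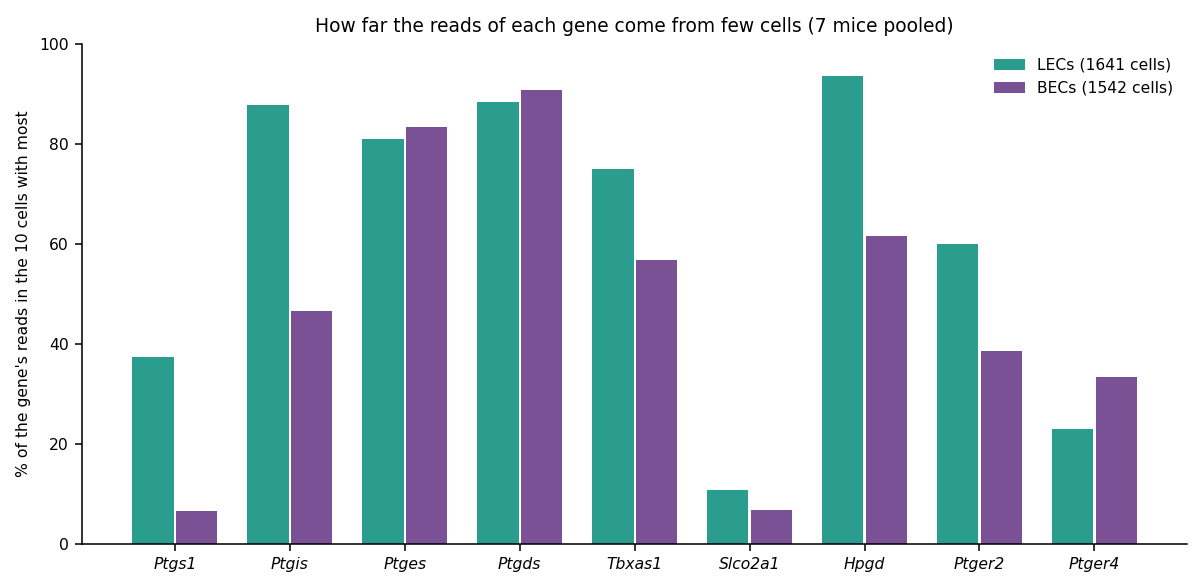
Share of each gene's reads, in percent, that came from the 10 cells with most of them, among 1641 LECs and 1542 BECs of all 7 mice; *Ptgs2* with 56 reads is left out. The share is at most 10.6% for *Slco2a1* and 6.62% for *Ptgs1* in BECs, and over 80% for *Ptges* and *Ptgds* in both classes.

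The reads of the low genes thus came from few cells. In BECs 138 cells supplied the larger part of the *Ptgs1* reads and 152 that of *Slco2a1*, whereas 5 cells did so for *Ptges*, 3 for *Ptgds* and 8 for *Hpgd*. The 65 cells that were neither LEC nor BEC, 58 of them with more markers of another type, had 93.1 CPM of *Ptges*, 85.5 of *Ptgis*, 63.8 of *Ptgs1* and 27.1 of *Hpgd* in their pooled reads. These cells differed widely between mice: *Ptgis* was at 125–135 CPM in those of the controls and at 0–0.412 in those of the mutants, and *Ptges* at 47.0–124 and at 0–154.

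*Slco2a1*, on chromosome 9 at 102988712–103096002, encodes the carrier that brings prostaglandins into the cell. In BECs it was at 227 and 120 CPM in the controls and at 663, 887, 613, 546 and 622 CPM in mutants 1–5. In LECs it was at 110 and 68.6 CPM in the controls and at 185, 168, 174, 139 and 269 CPM in the mutants. BECs were the higher in each mouse, while the LECs of mutants overlapped with the BECs of controls. LECs had less than BECs by a log2 change of −1.36 (SE 0.15, adjusted p = 0.000386), and the call held without any 1 mouse. The excess of all BECs was not shared by each class of them. Venous-marker BECs were at 582–617 CPM in controls and 811–1236 in mutants. Capillary-marker BECs were at 50.9–58.0 and 67.3–245 CPM, below the LECs of the same mouse in controls and most mutants. Arterial-marker BECs, at 36.4–107 and 68.9–138 CPM, were below them in each mouse. Collecting LECs of controls, at 364–562 CPM, lay above control BECs. LECs were not tested against single BEC classes. A read after thinning was found in 45.7% ± 14.3 (SD, n = 7) of LECs and 63.0% ± 19.9 of BECs.

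*Hpgd*, on chromosome 8 at 56294585–56321043, encodes the dehydrogenase that inactivates prostaglandins. It ranged from 0 to 1.63 CPM in LECs and from 0.126 to 9.43 in BECs. BECs were higher in 6 of 7 mice, and the log2 change of −2.67 (SE 1.39, adjusted p = 0.234) did not pass the test. Of its BEC reads, 70.8% lay in cells with more markers of another type. In the same BEC sums the carrier was at 120 CPM or more.

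The receptors went in opposite directions between LECs and BECs. *Ptger2* (chromosome 14, 44988195–45003820), whose EP2 receptor raises cyclic AMP, was at 27.8 and 3.28 CPM in control LECs and at 5.19, 5.47, 4.16, 0 and 0.653 CPM in those of mutants 1–5. In BECs no mouse exceeded 0.570 CPM, and 44 reads were found in all, against 3018 in LECs. It was higher in LECs in 6 of 7 mice and at 0 in the LECs of mutant 4. The log2 fold change was 6.08 (SE 1.18, adjusted p = 0.00802) and was called without any 1 mouse, with a range of 5.56 to 8.14. Even so only 12.6% of LECs in control 1 and at most 2.67% in any other mouse had a read after thinning, and 9 cells held the larger part of the LEC reads.

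*Ptger4* (chromosome 15, 5206661–5244187), whose EP4 receptor also raises cyclic AMP, was at 37.4 and 14.8 CPM in control BECs and at 19.7, 10.6, 25.0, 43.9 and 7.22 CPM in those of mutants 1–5. In LECs it was at 15.5 and 6.50 CPM in the controls and at 4.91, 5.61, 4.76, 5.47 and 5.08 CPM in the mutants. BECs were higher in every mouse, by a log2 fold change of −1.47 for LECs against BECs (SE 0.36, adjusted p = 0.0237). Without control 1 the adjusted p was 0.115 and without control 2 it was 0.101. A read after thinning was found in 12.6% ± 2.67 of LECs and 13.7% ± 5.63 of BECs (SD, n = 7). This share differed by −1.09 percentage points within mice (SD 5.01), less than its spread.

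In all, 5 of the 9 genes tested differed between LECs and BECs (*Ptgs1*, *Ptgis*, *Slco2a1* and *Ptger4* higher in BECs, *Ptger2* in LECs), and 20.6% of the 21979 genes tested did. For the shares of cells, BECs were higher in 7 of 7 mice for *Ptgs1*, *Ptgis* and *Slco2a1*, with an exact permutation p of 0.0156 each, the smallest that sign flips over 7 mice can give. Adjusted over the 10 genes this was 0.0521, and 0 of 10 shares passed the threshold.

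Of the wider pathway, a list of 54 genes, 50 were tested between LECs and BECs, and 11 were called higher and 6 lower in LECs, beside 20.6% of all genes. *Cysltr1*, a receptor for cysteinyl leukotrienes, had a median of 0.782 CPM in LECs and 76.1 in BECs (log2 fold change −6.03, SE 0.52, adjusted p = 0.000141). *Abcc4*, an ABC pump that exports prostaglandins, was lower in LECs by a log2 change of −4.06 (SE 0.28, adjusted p = 4.62e-05), as were *Cbr3*, a carbonyl reductase, by −5.01 (SE 0.73, adjusted p = 0.00191) and *Cyp2j9*, a cytochrome P450, by −5.57 (SE 0.90, adjusted p = 0.00330). The pump *Abcc4* and the uptake carrier *Slco2a1* thus were both higher in BECs. Of the 4 carriers in the list, 2 were called higher and 1 lower in LECs. Chosen after their values were seen, *Slco3a1*, another carrier of the same family, was higher in LECs, with medians of 196 and 61.5 CPM (adjusted p = 0.000239). The carrier *Slco2b1* was higher there by 0.55 (SE 0.13, adjusted p = 0.0208) and *Ltc4s*, the leukotriene C4 synthase, by 2.41 (SE 0.39). The median log2 fold change of the list was 0.23, and that of all genes 0.02.

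Within the blood vessels the leading genes were venous. *Ptgs1* stood at 321 and 250 CPM in the venous-marker BECs of the controls and at 436, 420, 388, 477 and 425 CPM in those of mutants 1–5. In capillary-marker BECs it was at 71.8 and 47.5 CPM in the controls and at 21.5–136 in the mutants, and in arterial-marker BECs at 43.9 and 43.3 and at 1.82–179.9. In every mouse the venous value was the highest of the 3. Venous-marker BECs exceeded the mean of the other 2 classes by a log2 change of 2.90 (SE 0.47, adjusted p = 0.000954).

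*Slco2a1* was highest in venous-marker BECs too. It was at 617 and 582 CPM in the venous-marker BECs of the controls and at 861, 1236, 831, 868 and 811 CPM in those of the mutants. In capillary-marker BECs it was at 58.0 and 50.9 CPM in the controls and at 67.3, 167, 204, 136 and 245 in the mutants, and in arterial-marker BECs at 107 and 36.4 and at 68.9–138. All venous values lay above all others, with a log2 change of 2.99 (SE 0.21, adjusted p = 1.65e-07). *Slco2a1* was also called lower in arterial-marker BECs (−1.83, SE 0.24, adjusted p = 0.000174) and in capillary-marker BECs (−1.16, SE 0.23, adjusted p = 0.00703), each against the mean of the other classes. The capillary call was lost without the cells that carried more markers of another type (adjusted p = 0.273) and without the cell with most *Slco2a1* reads (adjusted p = 0.267).

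*Ptger4* ran the other way. It was at 24.5 and 2.08 CPM in the venous-marker BECs of the controls and at 3.29–7.10 in those of the mutants, and at 40.7 and 17.4 and at 4.14–100 CPM in capillary-marker BECs. The venous value was lower than the capillary one in every mouse, and the log2 fold change of venous-marker BECs was −2.73 (SE 0.61, adjusted p = 0.0133). Leaving out mutant 1, 2 or 4 took the adjusted p to between 0.0519 and 0.0536, and leaving out the cell with most *Ptger4* reads to 0.0903. Of the 8 genes tested, 3 were called in venous-marker BECs, 1 in arterial- and 1 in capillary-marker BECs, and 4.83%, 4.34% and 2.95% of all genes tested were. *Ptgs1* in arterial-marker BECs was just outside, with a log2 change of −1.93 (SE 0.53, adjusted p = 0.0501).

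The reads of *Ptgs1* and *Slco2a1* were also compared cell by cell. Among venous-marker BECs with a *Slco2a1* read after thinning, a median of 77.4% had a *Ptgs1* read (58.8–82.2% over mice), and among those without it 41.7% (6.67–53.8%). The first share was higher in 7 of 7 mice. It was higher in 7 of 7 mice in collecting LECs too, at medians of 26.7% and 16.7%, in 6 of 7 in capillary-marker BECs, at 38.6% and 21.8%, in 6 of 7 in *Ptx3*-negative and 4 of 7 in *Ptx3*-positive other LECs, and in 4 of 7 in arterial-marker BECs.

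Of the 54 pathway genes, 6 were called higher and 1 lower in venous-marker BECs of the 43 tested, beside 4.83% of all genes. *Cysltr1* was at 101–152 CPM in venous-marker and at 0.223–17.0 CPM in arterial-marker BECs (venous log2 fold change 4.99, SE 0.64, adjusted p = 0.000121). The carrier *Slco4a1* (5.12, SE 1.24, adjusted p = 0.0227) and *Ephx2*, an epoxide hydrolase (5.08, SE 1.27, adjusted p = 0.0262), were higher as well. The carrier *Slco2b1* was called higher in venous-marker (0.96, SE 0.25, adjusted p = 0.0340) and in capillary-marker BECs (1.18, SE 0.25, adjusted p = 0.0131), and lower in arterial-marker BECs (−2.14, SE 0.29, adjusted p = 0.000266). In arterial-marker BECs *Cysltr1* (−5.24, SE 0.85) and *Mgll*, a monoacylglycerol lipase (−0.84, SE 0.21), were lower. *Mgll* was higher in capillary-marker BECs by 1.70 (SE 0.20, adjusted p = 7.32e-05) and *Alox12*, the platelet-type lipoxygenase, in arterial-marker BECs by 3.23 (SE 0.52, adjusted p = 0.00115).

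**Figure D3:**
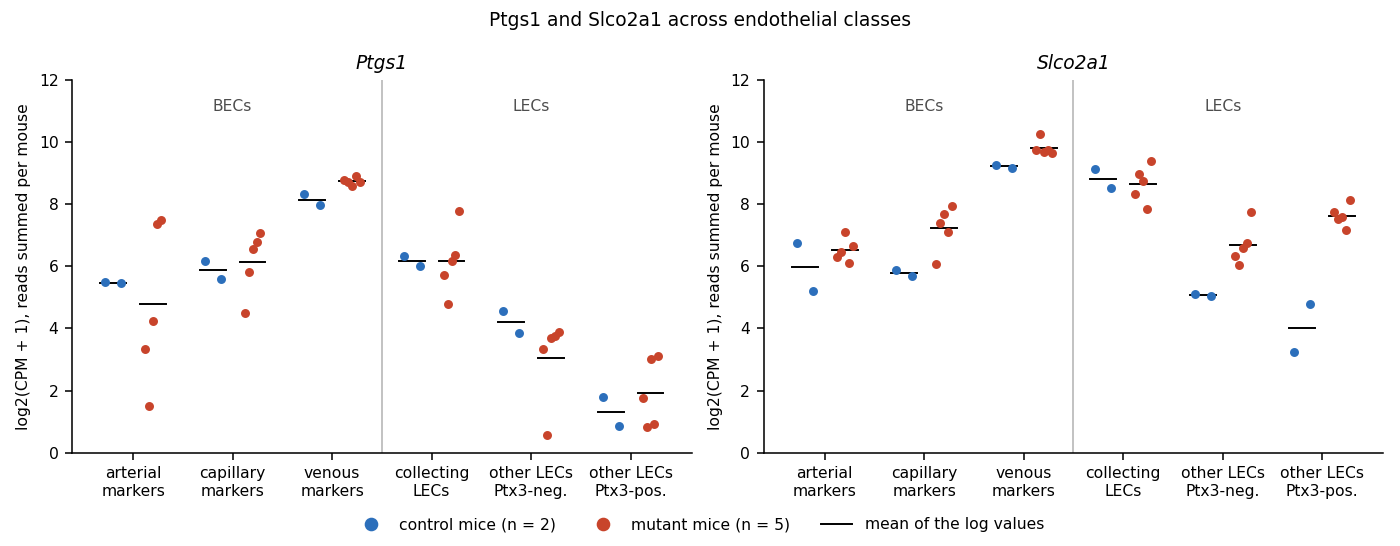
*Ptgs1* and *Slco2a1* as log2(CPM + 1) of the reads summed per mouse in 3 classes of BECs and 3 of LECs. Points are mice and bars the means of the log values. Both are highest in venous-marker BECs, followed among LECs by collecting vessels, and *Slco2a1* in other LECs is higher in all 5 mutants than in both controls, with or without *Ptx3* reads.

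Within the lymphatic vessels the same 2 genes were higher in collecting LECs. These cells also had more of a list of 7 BEC markers, at 2155–2943 CPM against 1076–1488 in other LECs. A list of 7 LEC markers was lower in them, with medians of 6232 and 9460 CPM. The part of BEC RNA or doublets in the levels of the 2 genes was not tested. *Slco2a1* was at 562 and 364 CPM in the collecting LECs of the controls and at 323, 504, 428, 232 and 675 CPM in those of mutants 1–5. In other LECs it was at 31.4 and 30.5 CPM in the controls and at 152, 116, 143, 128 and 255 in the mutants. The collecting value was the higher in each mouse, and the ranges overlapped only between collecting LECs of mutant 4 and other LECs of mutant 5. The log2 fold change of collecting against other LECs within mice was 2.72 (SE 0.18, adjusted p = 0.000319) and was called in each alternative run. After edgeR's scaling the median gene had a log2 fold change of −0.42 in collecting LECs. The reason for this offset was not tested.

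*Ptgs1* was at 79.2 and 64.1 CPM in control collecting LECs and at 52.1, 26.7, 71.3, 81.6 and 220 CPM in those of the mutants, against 20.9 and 9.42, and 5.43, 0.603, 9.54, 5.77 and 10.0 CPM in other LECs. The groups did not overlap, and the log2 fold change was 3.23 (SE 0.44, adjusted p = 0.0143). This rested on few cells, as 41 of 189 collecting LECs had a read after thinning and 6 cells held the larger part of the reads. Without the cell with most reads the log2 fold change was 2.49 with an adjusted p of 0.154, and without control 1 or control 2 the adjusted p was 0.114 and 0.154. Of 9 genes tested these 2 were called, as were 0.663% of all genes tested.

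Collecting cells were also split by *Cldn11*, a marker of valve LECs. Those with a *Cldn11* read had 243 CPM of *Ptgs1* in controls (11 cells) and 110 in mutants (68 cells), and those without it 28.4 (36 cells) and 51.0 (74 cells). *Slco2a1* differed less, at 575 and 386 CPM with a *Cldn11* read and at 445 and 452 without. These are pooled reads of few cells and carry no test.

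The third question was what changed in the mutants. In BECs *Ptgs1* rose by a log2 change of 1.60 (SE 0.25, adjusted p = 0.0234) and *Slco2a1* by 2.00 (SE 0.31, adjusted p = 0.0227), and for both all 5 mutants lay above both controls, with the values given above. These were 2 of 8 genes tested, and 1.86% of all genes tested were called. The other 6 genes tested had log2 fold changes between −3.76 (*Ptgds*, SE 1.70) and −0.25 (*Ptger4*, SE 0.67), none of which passed. The *Ptgds* value followed control 1 alone.

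Because BECs of mutants were more often venous, the rise was also followed within classes. Venous-marker cells made up 28.2% and 14.6% of the BECs of control 1 and control 2 and 46.0–70.1% of those of mutants. Within venous-marker BECs *Ptgs1* had a log2 change of 0.59 (SE 0.16, adjusted p = 0.0744) and *Slco2a1* of 0.63 (SE 0.20, adjusted p = 0.124), where 2.94% of all genes were called. Within capillary-marker BECs they were 0.55 (SE 0.58) and 1.68 (SE 0.45, adjusted p = 0.410), where 0.0173% of all genes were. With the same number of arterial-, venous- and capillary-marker cells from each mouse (11, 24 and 45) the fold changes were 0.86 (SE 0.36, adjusted p = 0.412) for *Ptgs1* and 0.88 (SE 0.26, adjusted p = 0.265) for *Slco2a1*. These fits were chosen after the data were seen and use fewer cells. The log2 fold changes were above 0 in each and ranged from 0.55 to 1.68.

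The 2 calls in BECs were close to the threshold. For *Ptgs1* the adjusted p was 0.0621, 0.0582 and 0.0528 without mutant 1, 2 or 3, and the log2 fold change was between 1.58 and 1.63. Without control 1 or control 2 it was 2.18 and 1.20, with adjusted p of 0.0137 and 0.0454. For *Slco2a1* it was 0.0578 and 0.0520 without mutant 1 or 3, and without control 2 the log2 fold change was 1.61 with an adjusted p of 0.0772. The plates fell into a pair of series by their numbers, mutants 1–4 in one and mutant 5 with both controls in the other. With the series as a covariate, the genotype effect rests on mutant 5 against both controls. It was 1.68 for *Ptgs1* and 1.88 for *Slco2a1*. The 2 plates of mutant 3 gave 238 and 344 CPM of *Ptgs1* in BECs, and those of mutant 5 gave 349 and 319, all above the control values.

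Other measures moved with genotype in BECs. The summed fibroblast list was at 576–787 CPM in controls and 12.8–54.0 in mutants, and the mural list at 359–670 and 9.03–262. The keratinocyte list did not move in this way, at 603–647 CPM in controls and 13.3–1108 in mutants, on both sides of the controls. These cell types' part in the difference was not tested. The cells with more of their markers held 1.01% of the *Ptgs1* reads and 1.71% of the *Slco2a1* reads of BECs. Cycling cells, with reads of 3 or more cell cycle genes after thinning, made up 0–1.83% of BECs in controls and 1.60–26.7% in mutants. Among LECs they made up 0.546–2.86% in controls and 12.6–29.9% in mutants. The fits by genotype were not adjusted for cycling.

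**Figure D4:**
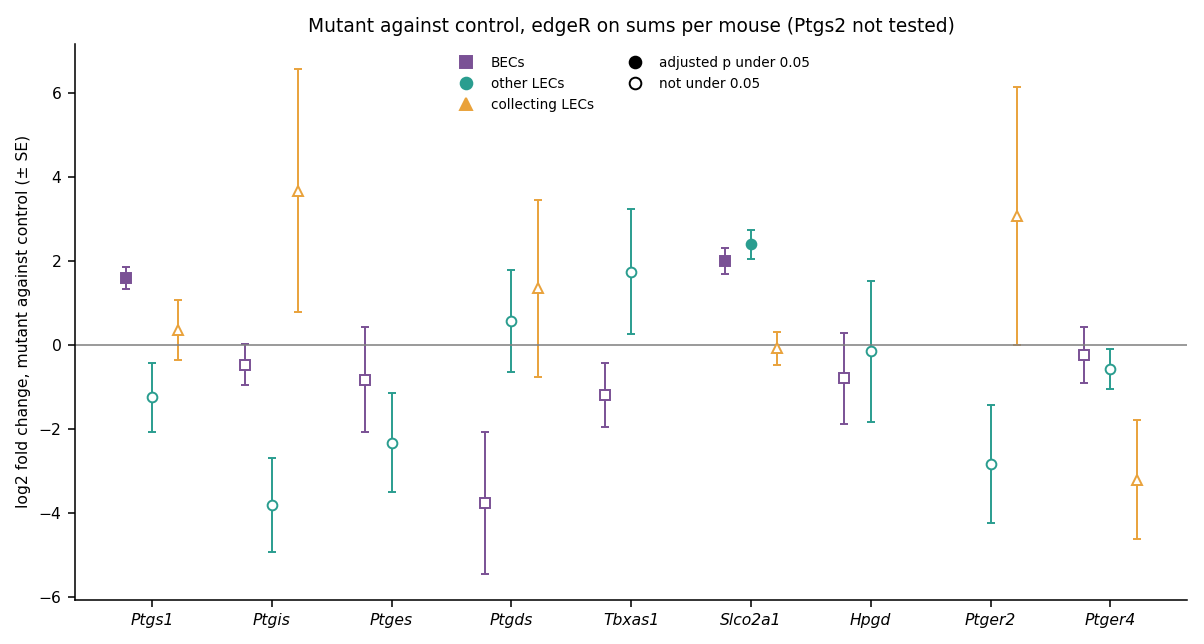
Log2 fold change of mutant against control with its SE for each gene tested in BECs, other LECs and collecting LECs (edgeR, 5 mutant and 2 control mice). Filled points have an adjusted p under 0.05, which were *Ptgs1* and *Slco2a1* in BECs and *Slco2a1* in other LECs, and *Ptgs2* was not tested.

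In other LECs the carrier was the single gene called. *Slco2a1* rose from 30.9 ± 0.68 CPM (SD, n = 2) in controls to 159 ± 55.8 (SD, n = 5) in mutants, with no overlap, a log2 change of 2.40 (SE 0.34, adjusted p = 0.0120). This was 1 of 9 genes tested, and 3.61% of all genes tested were called. Without control 1 the log2 fold change was 2.50 with an adjusted p of 0.0572. The plates of mutant 3 gave 156 and 127 CPM and those of mutant 5 gave 292 and 221.

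Other LECs were also split by *Ptx3*, a secreted immune pattern recognition protein whose reads mark many mutant LECs. Cells with more than 1 *Ptx3* read after thinning made up 7.74% and 28.8% of the other LECs of controls 1 and 2, and 41.2–57.9% in mutants. Among them *Slco2a1* was at 8.54 and 26.9 CPM in controls and at 213, 184, 194, 142 and 280 CPM in mutants, a log2 change of 3.50 (SE 0.46, adjusted p = 0.0131). Control 1 had 12 such cells. Among the cells without it *Slco2a1* was at 33.6 and 32.1 CPM in controls and at 80.1, 65.5, 95.9, 107 and 217 CPM in mutants, where the log2 change of 1.80 (SE 0.45, adjusted p = 0.147) did not pass. The mutants lay above both controls in either class, while the size of the difference changed between them and the call was lost in the second, and 4.43% and 0.106% of all genes tested were called.

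*Ptgis* was called in *Ptx3*-positive other LECs, with 65.4 and 5.33 CPM in controls and 0.282, 0.738, 0.155, 2.65 and 1.53 CPM in mutants (log2 fold change −5.12, SE 1.17, adjusted p = 0.0470). In all other LECs it was at 21.7 and 2.03 CPM in controls and at 0.121–1.70 in mutants, and the log2 change of −3.82 (SE 1.12, adjusted p = 0.102) did not pass. The *Ptx3*-positive value rested on 3 of 57 control cells with a read, and 1 cell held 98.5% and 95.6% of the reads of the controls. In all other LECs 3 cells held the larger part of the reads, and 67.2% of the reads lay in cells with more markers of another type. In other LECs the fibroblast list was at 216–443 CPM in controls and 15.2–78.1 in mutants.

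The remaining genes did not pass in other LECs. *Ptgs1* had a log2 change of −1.24 (SE 0.82, adjusted p = 0.423), and the mutant values overlapped with those of the controls. *Ptger2* had −2.83 (adjusted p = 0.294), with control 1 at 32.4 CPM and the other 6 mice at 0–6.32. *Ptger4* had −0.57 (SE 0.47).

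Over all LECs 0 of 9 genes tested were called by edgeR, where 2.76% of all genes tested were and 3963 genes had an unadjusted p under 0.05, while DESeq2 called *Slco2a1*. DESeq2 also called more genes in all than edgeR there, as given below. The log2 fold change of *Slco2a1* was 1.10 (SE 0.30, adjusted p = 0.0898), with all mutants above both controls. In collecting LECs 0 of 6 were called, as were 0% of all 13720 genes tested, although 1019 had an unadjusted p under 0.05 and DESeq2 called 327. There *Slco2a1* was at 463 ± 140 CPM in controls and 432 ± 170 in mutants, with a log2 change of −0.08 (SE 0.39), and *Ptgs1* had 0.36 (SE 0.72). *Ptger4* was at 35.8 and 22.3 CPM in control collecting LECs and at 0–7.06 in those of mutants, with a log2 change of −3.20 (SE 1.43, adjusted p = 0.670).

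Whether genotype acted differently on the classes was tested directly. Between LECs and BECs 0 of 9 genes were called by edgeR, where 0.182% of all genes were and 2482 had an unadjusted p under 0.05, while DESeq2 called *Ptgs1* and *Slco2a1*. The DESeq2 share over all genes is not given for this comparison. The difference of the log2 fold changes, LECs less BECs, was −2.49 (SE 0.51, adjusted p = 0.128) for *Ptgs1* and −0.96 (SE 0.28, adjusted p = 0.259) for *Slco2a1*. Without mutant 2 that of *Ptgs1* was −2.13 with an adjusted p of 0.0315. Between collecting and other LECs that of *Slco2a1* was −2.48 (SE 0.34, adjusted p = 0.454), and 0% of all genes were called by edgeR, with 1008 at an unadjusted p under 0.05, while DESeq2 called 343.

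The class differences were also fitted within each genotype. In controls alone the log2 fold change of LECs against BECs was −2.21 (SE 0.44, adjusted p = 0.0173) for *Ptgs1*, the 1 of 9 genes called there, where 10.1% of all genes were. *Slco2a1* (adjusted p = 0.0579), *Ptger2* (0.0612), *Ptger4* (0.282) and *Ptgis* (0.519) did not pass in the controls. In mutants alone 5 of 9 were called, beside 19% of all genes, and *Ptgs1* had −4.70 (SE 0.31, adjusted p = 5.05e-05). *Slco2a1* was higher in collecting than other LECs in controls by 3.96 (SE 0.32, adjusted p = 0.00769) and in mutants by 1.48 (SE 0.18, adjusted p = 0.00611). *Ptgs1* had 2.44 (SE 0.69, adjusted p = 0.434) in controls and 4.02 (SE 0.47, adjusted p = 0.00496) in mutants, and the genes called were 1 of 9 beside 0.0579% of all genes in controls and 2 of 9 beside 0.984% in mutants.

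Across the 21 sums of collecting LECs, other LECs and BECs of 7 mice, the genes most like each of the 4 higher genes were listed by Pearson's r of log2(CPM + 1), as a description of sums that share mice and libraries. *Ptgs1* was most like *Gm43621* (r = 0.97), an antisense transcript that shares 148 exon bases with it, then *Lifr* (0.94) and *Fabp5* (0.92). *Slco2a1* was most like *Trp53i11* (0.86), *Cfb* (0.83) and *Slc2a1* (0.82), and its r with *Ptgs1* was 0.70. *Ptgis* was most like *Msx1* (0.89) and *Ptger4* like *4732471J01Rik* (0.85). Of the 10 genes, 6 share exon bases with a gene on the opposite strand, up to 15.3% of the exons for *Ptger4*. Since the strand setting of the counting is not given in the sources used here, reads of such pairs cannot be told apart.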

How the data were processed

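The deposited tables hold raw counts, 1 column per cell, with exon lengths beside them. To make these counts the authors aligned Smart-Seq2 reads with TopHat2 2.1.1 to GRCm38, extended by a chicken *PIK3CA* sequence, dropped duplicates by SAMtools 0.1.18 and counted reads per Ensembl gene with featureCounts, and the submitters' processing notes name R 3.5.1 and Seurat 3.1.1, with later versions of both also named in the study's methods. The annotation version and the strand setting are not given in the sources used here. The 10 genes and the gene lists were chosen with earlier results of these data known.

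Counts were summed per mouse and cell class (at least 5 cells), with both plates of mutants 3 and 5 joined, and fitted with edgeR 4.0.16 in R 4.3.3 (quasi-likelihood test, filterByExpr, TMM), with the mouse as a block between classes, and p-values were adjusted by Benjamini-Hochberg over all genes tested. Standard errors are the log2 fold change divided by the square root of F. Shares of cells were taken after thinning each cell to 50000 reads and compared by two-sided exact permutation tests over mice. For mutant against control such a test cannot reach the threshold with these 7 mice, so those shares were not tested. No doublet caller was run. All 10 genes were named, and of the pathway list the 4 called genes with the largest absolute log2 fold change and a mean log2 CPM of at least 2 in each comparison for which the list is reported, unless the text says otherwise. Scripts were tested on simulated data. Alternatives were DESeq2 1.42.0, other size factors, no expression filter, each mouse left out, other cell rules and depths. Python 3.11.15 with numpy 2.4.6, pandas 2.3.3, scipy 1.17.1 and matplotlib 3.10.9 was used. Depth per sum is given in the text. Exon lengths in the tables equalled those of GENCODE vM21 for 8 of the 10 genes, and positions and overlaps are from that annotation.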

Additional observations from a re-analysis of the deposited data

Results flagged for a closer look

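In each group of 5 mutant mice the highest or lowest mouse was compared with the others by Dixon's ratio. Of 40 groups, 10 had a mouse that stood apart. The limit used flags about 1 in 20 groups by chance where values are independent and normally spread. Here some groups held 1 read and the LEC classes share cells, so the count cannot be set against that rate.

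Mutant 5 accounted for most of the flagged groups. *Slco2a1* in its other LECs was at 255 CPM against 116–152 in the other mutants, and there no cell held more than 3.63% of the reads. *Ptgs1* in its 13 collecting LECs was at 219.7 CPM against 26.7–81.6, with 63.7% of the reads in 1 cell. *Ptgis* in the same collecting LECs was at 68.2 CPM against 0–2.87, with 99.5% in 1 cell, and *Ptges* at 21.7 CPM against 0–0.161, with 78.1% in 1 cell. *Tbxas1* was at 1.93 CPM in its LECs against 0.0899–0.238 and at 1.99 CPM in its other LECs against 0.0832–0.249, with 64.8% and 65.0% of the reads in 1 cell.

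*Ptgs2* in the BECs of mutant 5 was at 0.448 CPM against 0–0.0294, with 97.8% of the reads in 1 cell, and in the collecting LECs of mutant 3 it was at 0.0776 CPM from 1 read. *Hpgd* in the collecting LECs of mutant 4 was at 0.159 CPM, also from 1 read. *Ptgs1* in the LECs of mutant 2 was low, at 4.14 CPM against 13.9–16.9, and 86.5% of those reads lay in 1 cell.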

How the results depend on the processing

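Of the gene counts per comparison, those of collecting LECs by genotype (0 of 6), of venous-marker BECs (3) and of the shares of cells (0) moved by at most 1.5 times in each alternative run. With DESeq2, 1 gene was called by genotype in LECs, 2 in other LECs, 2 in the comparison of LEC and BEC genotype effects, 1 in that of collecting and other LECs, 3 in arterial-marker and 2 in capillary-marker BECs. DESeq2 called 2472 genes in LECs, 2170 in BECs and 2017 between collecting and other LECs, where edgeR called 546, 364 and 126. With each mouse left out in turn the counts ranged from 0 to 2 in BECs by genotype, 0 to 1 in other LECs, 3 to 5 between LECs and BECs, 0 to 1 for the LEC and BEC genotype effects, 1 to 2 between collecting and other LECs and 1 to 2 in arterial-marker BECs.

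In BECs by genotype 0 genes were called with the plate series as a covariate, with equal numbers of each BEC class, in venous-marker BECs only and in capillary-marker BECs only. In other LECs 2 were called with thinned cells and 2 in *Ptx3*-positive cells, against 0 in *Ptx3*-negative cells. Between collecting and other LECs 1 was called with equal cell numbers, with the stricter LEC rule, with the stricter collecting rule and without the cell with most reads of each gene. In arterial-marker BECs 2 were called without the expression filter, with first plates only, with thinned cells and without the cell with most reads, and there the log2 fold change of *Ptger4* turned from 1.26 to −0.57. In capillary-marker BECs 0 were called with equal cell numbers or without contaminating cells. The cause of these changes was not tested.

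Controls and mutants share the numbers 1 and 2 in the labels, but deviations of same-numbered mice correlated at −0.0559 to 0.0617, so they share only a number. With the replicate block 0 genes were called by genotype in BECs and 0 in other LECs, where *Slco2a1* had 2.30 (adjusted p = 0.106) and 2.13 (adjusted p = 0.113) by edgeR. The alternatives on single cells with most reads, BEC classes and *Ptx3* were chosen after seeing the data. Only 2 control mice, of different treatment, and levels of 1 read per sum for the lowest genes limit these results. Of the results per gene, 75 were called in no setting, and 119 of their 1385 alternatives had another sign.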

Other observations

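In the wider list of 54 eicosanoid genes, 53 of them in the tables, 2 of 46 tested were called by genotype in LECs, both higher in mutants, beside 2.76% of all genes. *Ltc4s*, the leukotriene C4 synthase, was at 5.28 and 8.23 CPM in control LECs and at 23.1–92.6 in mutants (log2 fold change 2.82, SE 0.58, adjusted p = 0.0439 by edgeR). *Lta4h*, which makes leukotriene B4, was at 121 CPM in both controls and at 186–251 in mutants (0.85, SE 0.18, adjusted p = 0.0453). In venous-marker BECs *Ltc4s* (0 and 0.173 CPM in controls, 7.29–12.1 in mutants, adjusted p = 0.0346) and *Pla2g6*, a phospholipase A2 (3.06, SE 0.66, adjusted p = 0.0491), were called higher in mutants. These were 2 of 44 tested, beside 2.94% of all genes. In other LECs both *Ltc4s* (3.13, SE 0.56) and *Lta4h* (0.90, SE 0.19) were called, and *Akr1b3*, an aldo-keto reductase that can make prostaglandin F2α, was called as well, at 29.1 and 30.7 CPM in controls and 50.4–70.0 in mutants (1.01, SE 0.20, adjusted p = 0.0380). These were 3 of 45 tested, beside 3.61% of all genes.

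In BECs 1 of 46 tested genes of the list was called by genotype, beside 1.86% of all genes, in collecting LECs 0 of 26, beside 0%, and between collecting and other LECs 0 of 44, beside 0.663%. The 65 cells that were neither LEC nor BEC comprised 39 from controls and 26 from mutants. Of these, 58 had more markers of another type, and by the highest such list 28 were keratinocyte, 14 mural, 13 fibroblast, 2 Schwann and 1 immune.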
